A study of Mus musculus with 48 samples.

Results

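The 8 genes Fos, Fosb, Fosl1, Fosl2, Jun, Junb, Jund and Atf3 were taken by symbol from the 24421 gene entries of 6 deposited tables, and all 8 were found in all 48 libraries. Their products are the subunits of activator protein 1 (AP-1), a transcription factor built as a dimer of leucine zipper proteins. Fos proteins pair only with partners such as Jun proteins, whereas Jun proteins also pair among themselves. Fos, Fosb, Junb and Jun are immediate early genes: in neurons and glia their transcripts rise within minutes of calcium entry, cyclic AMP or growth factor signalling, and also during tissue dissociation, and then decay quickly. Fosl1 and Fosl2 encode Fos relatives that usually appear later, Jund is mostly expressed constitutively, and Atf3 encodes a stress-induced leucine zipper protein that can dimerise with Jun proteins.

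The libraries are RNA-seq profiles of mouse brain cells sorted by fluorescence, in 16 groups of 3. The first 12 groups come from mice with the genotype label Aldh1l1-GFP (GFP under an astrocyte promoter) in cortex, hippocampus and olfactory bulb. In each region the GFP sort, labelled astrocytes, and the mCh sort, labelled neurons, were profiled after Gq-Saline and after Gq-CNO, where CNO is clozapine N-oxide, the ligand of designer receptors. A further 2 groups are Aldh1l1-GFP olfactory bulb GFP sorts labelled CNO-control and untreated. The last 2 are olfactory bulb mCh sorts, labelled astrocytes, from mice of genotype Slc22a3-FF (a floxed transporter gene) that received Gfap-mCh (flox control) or Gfap-Cre (labelled Slc22a3-cKO), Gfap being an astrocyte promoter. The labels give no age nor whether each library of a group is a separate animal, and a p-value here speaks only to the spread among libraries.

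Depth was 0.228 to 24.7 Mreads (megareads, recovered from the deposited values) per library, with a median of 5.71 Mreads, and the precursor of ribosomal RNA, Rn45s, took 8.00 to 23.1% of them. Levels are given in reads-per-million of the library's total (RPM). The GFP sorts carried high astrocyte markers, with a median over 12 markers of 949 to 1932 RPM in every library. The Gq mCh sorts labelled neurons had a median over 10 neuron markers of 46.3 to 192 RPM, and over 10 microglia markers of 368 to 1330 RPM. In the 6 Slc22a3-FF libraries labelled astrocytes the microglia marker median was 431 to 1190 RPM and the astrocyte marker median 78.7 to 606 RPM. The targeted gene Slc22a3 had 0 reads in all 3 flox control libraries and in 2 of the 3 Slc22a3-cKO libraries, with 12 reads in the third, so it does not check that label. The deposited column names of the CNO-control, flox control and Slc22a3-cKO libraries start with DS and the others do not. A set of 4 libraries, 1 in each Gq group of the cortical and hippocampal GFP sorts, carry the number 4, which is on no sample title, and were placed by the region, treatment and sort in their column name. Because these are bulk samples, fewer cells of a type and less RNA per cell cannot be told apart.

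The sequences upstream of the start sites are shown for the 4 members that rose together in the CNO-control libraries (Fos, Fosb, Junb and Jun) and for Atf3, which did not. Each is the 250 bases before the RefSeq transcription start (GRCm38.p6), 5′ to 3′ on the gene's strand, and capitals mark TGACG or its reverse complement CGTCA, the core of the cyclic AMP response element.
Fos: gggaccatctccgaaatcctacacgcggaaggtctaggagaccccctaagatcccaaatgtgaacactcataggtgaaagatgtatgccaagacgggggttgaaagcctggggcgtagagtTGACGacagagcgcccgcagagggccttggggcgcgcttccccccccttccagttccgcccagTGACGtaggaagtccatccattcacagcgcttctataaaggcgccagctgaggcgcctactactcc
Fosb: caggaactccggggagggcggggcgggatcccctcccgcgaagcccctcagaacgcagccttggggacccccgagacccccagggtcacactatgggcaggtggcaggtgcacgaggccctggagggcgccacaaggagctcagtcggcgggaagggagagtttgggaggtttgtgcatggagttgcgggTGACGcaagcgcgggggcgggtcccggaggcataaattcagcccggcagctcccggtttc
Junb: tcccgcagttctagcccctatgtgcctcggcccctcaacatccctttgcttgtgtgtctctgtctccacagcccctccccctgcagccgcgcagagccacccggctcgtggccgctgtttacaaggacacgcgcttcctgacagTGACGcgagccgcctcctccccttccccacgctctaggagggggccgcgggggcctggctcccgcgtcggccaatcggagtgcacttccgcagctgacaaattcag
Jun: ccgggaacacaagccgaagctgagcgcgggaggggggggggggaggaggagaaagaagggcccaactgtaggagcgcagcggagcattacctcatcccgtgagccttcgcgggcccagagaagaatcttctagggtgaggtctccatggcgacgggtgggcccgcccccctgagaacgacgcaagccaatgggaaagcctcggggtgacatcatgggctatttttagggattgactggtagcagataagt
Atf3: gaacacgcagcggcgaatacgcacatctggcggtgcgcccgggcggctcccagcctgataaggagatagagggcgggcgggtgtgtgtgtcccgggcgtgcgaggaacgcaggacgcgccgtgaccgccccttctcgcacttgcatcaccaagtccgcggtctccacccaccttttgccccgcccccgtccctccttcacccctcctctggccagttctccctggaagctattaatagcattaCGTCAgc
The windows lie at chr12:85473640-85473889 (+) for Fos, chr7:19310046-19310295 (-) for Fosb, chr8:84978749-84978998 (-) for Junb, chr4:95052223-95052472 (-) for Jun and chr1:191183334-191183583 (-) for Atf3. The Atf3 window lies inside the gene as GENCODE vM21 draws it (chr1:191170296-191218039). Among the windows not shown, that of Fosl2 (chr5:32136222-32136471) also lies inside its gene, which starts at 32135801. The Jund window (chr8:70697489-70697738) ends well before the gene, which starts at 70698949. Absences counted for Jund therefore do not describe the bases next to that start. Of 7 members matched in the RefSeq table, 4 carry the core on either strand (Fos, Fosb, Junb and Atf3), against 17.8% of 32851 windows of that length. Fos has it at 129 and at 66 bases before the start, Fosb at 60, Junb at 106 and Atf3 at 7. Within these 250 bases none of the 7 has the full TGACGTCA (1.55% of all windows), the AP-1 element TGANTCA (6.75%) or a CArG box, the serum response element (1.47%). Sites farther upstream and variant spellings were not searched, so the promoters may still hold such elements. TATAAA was found in the Fos window (12.4% of all windows) and CCAAT, on either strand, in those of Jun and Junb (33.8%). The TGACG core is part of TGACGTCA, so these counts overlap, and a match describes letters in a window.

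Across the 16 groups the highest median levels of Fos, Fosb, Jun and Junb were in the 3 groups whose column names start with DS. Fos, the founding member of the family, lay between 181 and 1522 RPM in those 9 libraries and between 0 and 102 RPM in the 36 Gq libraries, with a Gq median of 8.14. Jun, the main dimer partner of Fos, lay between 145 and 1667 RPM in the 9 libraries and between 0 and 151 RPM, median 35.8, in the 36. The ranges of Jun touch only through a single Gq library, the cortical GFP Gq-Saline library numbered 4, which is described further on. Fosb, a close relative of Fos, lay between 29.5 and 299 RPM in the 9 and reached 32.9 RPM in the 36, where its median was 0.229 and 16 libraries had no read. For Atf3 the 6 Slc22a3-FF libraries lay between 269 and 645 RPM, while the 3 CNO-control libraries (0.302 to 2.10) overlapped the untreated ones (0 to 1.74). In the same 9 libraries Malat1, a nuclear noncoding RNA, took 1.65 to 5.73% of reads, and in the 36 Gq libraries 0.054 to 1.02%. Its part in the result was not tested.

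**Figure D1:**
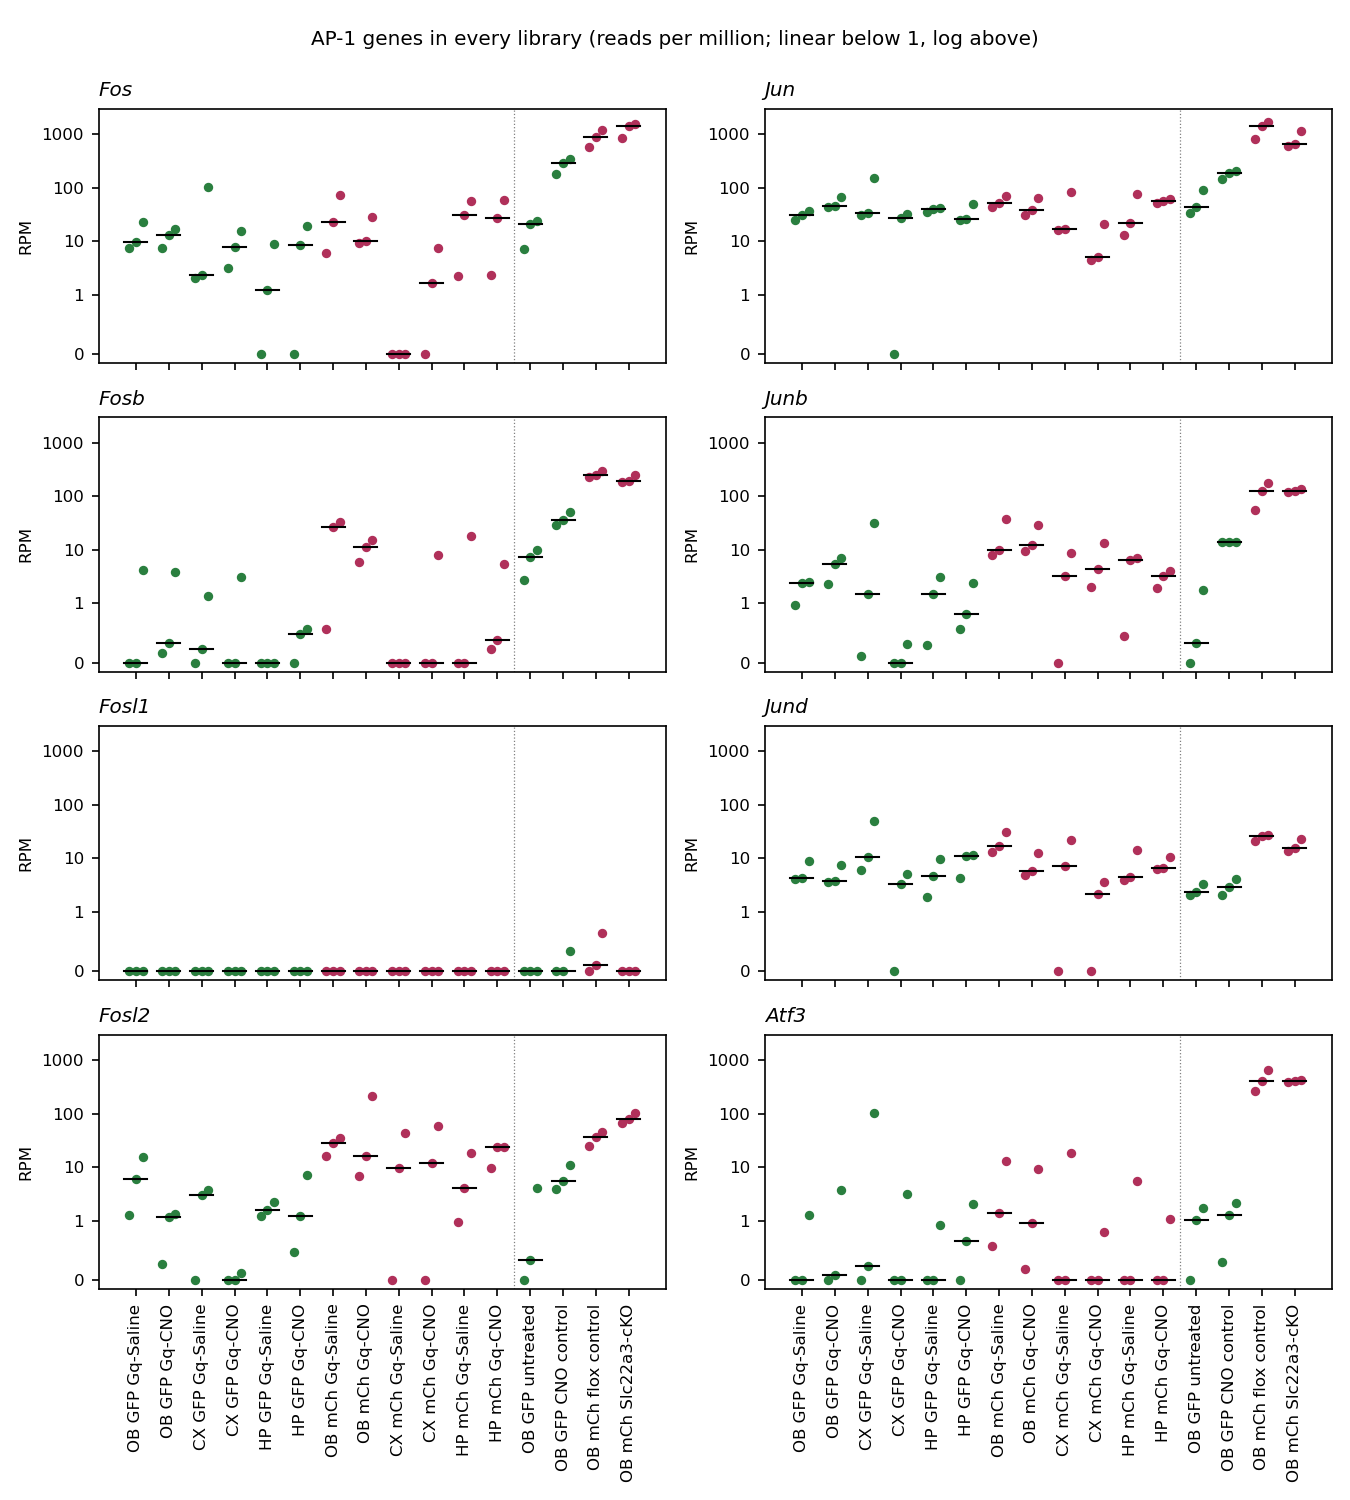
Reads-per-million (y axis, linear below 1 and logarithmic above) of the 8 genes in all 48 libraries; each point is a library, green for GFP and red for mCh sorts, and each bar the median of a group of 3. Groups right of the dotted line are the olfactory bulb libraries outside the Gq experiment, where Fos reaches 1522 RPM and Jun 1667 RPM in the Slc22a3-FF mice.

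The order of the groups by median Fos was Slc22a3-cKO (1422 RPM), flox control (896), CNO-control (292), then hippocampal mCh Gq-Saline (30.7). The ranges of the first 2 overlapped, and the third overlapped neither them nor any Gq group. From the fourth place down, ranges overlapped between all neighbours, from 30.7 RPM to cortical mCh Gq-Saline, where Fos had 0 reads in all 3 libraries. A count of 3 reads there would be 4.31, 2.37 and 1.21 RPM, so lower levels were not detectable at that depth. For Jun the order was flox control (1388), Slc22a3-cKO (657) and CNO-control (187), followed by hippocampal mCh Gq-CNO (55.2), with overlapping ranges among neighbours from there on.

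Per kilobase of exon, Jun had the highest group median of the 8 genes in 12 of 16 groups. Fos led in 3 (CNO-control, Slc22a3-cKO and hippocampal mCh Gq-Saline) and Junb in cortical mCh Gq-CNO. In that last group Junb had 14 reads and Jun 60 over 3 libraries, and their ranges per kilobase overlapped. Fosl1 was close to absent: 12 reads in all 48 libraries together, 0 in 45 of them. Lengths are from GENCODE vM21, where Fos has 2.352 kb of exon, Jun 3.189 kb in a single exon, Fosb 6.243 kb and Fosl2 9.68 kb. In that annotation (GRCm38) Fos (ENSMUSG00000021250) lies at chr12:85473890-85477273 on the plus strand and Jun (ENSMUSG00000052684) at chr4:95049034-95052222 on the minus strand. Junb overlaps Prdx2, Fosl1 overlaps Ccdc85b, Jun overlaps the antisense gene Junos and Jund the antisense gene Gm11175, and the sources used here do not say whether counting used strand. Prdx2 had 24.3 to 30.2 RPM in the CNO-control and 61.2 to 73.9 RPM in the untreated libraries, the opposite order to Junb.

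The clearest change among members was in CNO-control against untreated olfactory bulb astrocytes, labelled as the control for the ligand. Of 6 members that passed the filter on low values (3 or more libraries with a normalised value of 10 or higher), 4 were higher at an adjusted p under 0.05 (limma on log2 of the normalised value + 1) and none was lower. Of all 10940 genes tested, 12.2% were called in either direction and 5.29% were called higher. The median log2 difference of the 6 members was 2.56, and that of all genes 0.11. Of the 6, Junb reached the filter value in 3 CNO-control and 0 untreated libraries, and Fosl2 in 3 and 1. The count and the median are therefore partly selected for members high in CNO-control.

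Fos, which encodes the prototypical activity-induced subunit, had 181, 336 and 292 RPM in the 3 CNO-control libraries and 7.17, 23.19 and 20.6 RPM in the untreated ones. All 3 CNO-control libraries were above all 3 untreated ones, and the log2 difference was 3.83 (SE 0.38, adjusted p = 0.000148). Fosb had 29.5, 35.6 and 49.8 RPM against 7.17, 9.86 and 2.70 RPM, again without overlap, a log2 difference of 2.38 (SE 0.53, adjusted p = 0.0121). Its untreated values rest on 8 to 17 reads per library.

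Jun, the partner that also forms dimers with itself, had 145, 187 and 202 RPM in the CNO-control libraries and 43.9, 91.6 and 34.1 RPM in the untreated ones. The groups did not overlap, and the log2 difference was 1.51 (SE 0.31, adjusted p = 0.00808), smaller than that of Fos. Junb, which can restrain or replace Jun in the dimer, had 13.7, 13.99 and 14.1 RPM against 0, 1.74 and 0.337 RPM (0, 3 and 1 reads). Its log2 difference of 4.26 (SE 0.96, adjusted p = 0.0133) depends on the pseudocount, being 2.94 with a pseudocount of 5. Junb passed the filter only through the CNO-control libraries. Without any filter its adjusted p was 0.0331.

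Fosl2, the late Fos relative, had 5.59, 3.85 and 10.9 RPM against 0, 4.06 and 0.337 RPM. One untreated library overlapped the CNO-control range, and the log2 difference of 2.74 (SE 1.17, adjusted p = 0.149) did not pass. Jund, the constitutive Jun protein, had 2.10 to 4.197 RPM against 2.11 to 3.37 RPM, a log2 difference of -0.05 (SE 0.83, adjusted p = 0.975). Atf3 (0.302, 2.10 and 1.26 RPM against 0, 1.74 and 1.01) and Fosl1 (3 reads in all) did not reach the filter. Jund, Atf3 and Fosl1 were thus low in both groups, under 5 RPM in all 6 libraries.

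**Figure D2:**
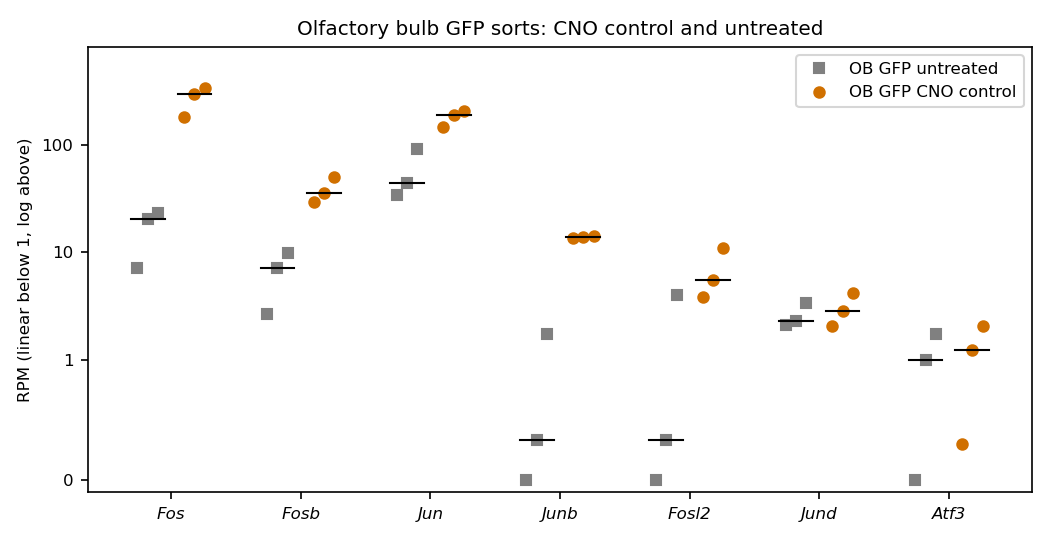
Reads-per-million (y axis, linear below 1 and logarithmic above) of 7 members in olfactory bulb GFP sorts; squares are untreated and circles CNO-control libraries, 3 of each, with the median as a bar. For Fos, Fosb, Jun and Junb every circle lies above every square, while Jund and Atf3 overlap.

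Some genes outside the members were also called in this comparison. The shares of all tested genes called higher and lower were 5.29% and 6.88%, and the counts per list are read against these. Whether the listed genes share a response with the members was not tested. Of 17 other immediate early genes tested, 7 rose and none fell. Among them were Egr1 (log2 difference 2.76, adjusted p = 0.00018), Nr4a3 (3.23, adjusted p = 0.00551) and Klf6 (1.33, adjusted p = 0.0118), all transcription factors. Of 11 feedback genes tested, which encode kinase phosphatases and factors of mRNA decay, 3 rose: Zfp36l2, Btg2 and Zfp36, whose protein destabilises AU-rich transcripts. Of 21 tested genes listed as the MAP kinase and transcription factor route to AP-1, which need not all be activators, none rose. Of these 1, Elk3, fell (log2 difference -1.86, adjusted p = 0.0314). Of 17 leucine zipper partners outside the Fos and Jun families, Nfe2l2 and Cebpd rose and Nfe2l1 fell. Of 12 textbook AP-1 target genes, Plat, tissue plasminogen activator, rose and the metallothionein Mt1 fell, with a median of -0.39. Of 10 heat shock genes, 1 rose and 1 fell.

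Several measures moved with the same contrast. Malat1 took 2.37 to 4.10% of CNO-control and 0.254 to 0.428% of untreated reads, and Rn45s 8.90 to 11.52% against 15.7 to 23.0%. Depth was 6.62 to 8.58 against 1.72 to 2.96 Mreads. All 10 microglia markers had a negative difference, 8 of them called, and their median was 3.36 to 12.1 against 39.42 to 62.8 RPM. Of 10 housekeeping genes 6 fell, of 12 astrocyte markers 5 fell, and of 7 endothelial markers 6 had a negative difference and 1 fell (median -1.50). Their part in the result was not tested, and treatment cannot be told apart from the DS prefix of the column names, which all CNO-control and no untreated library carries.

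Limits of the 4 calls were as follows. Fosb did not pass without the second and without the third CNO-control library (adjusted p = 0.0535 and 0.0849), and Junb was not tested without any one of the 3, since too few libraries then reached the filter, so 2 members were called when the second or the third was left out. Fos and Jun were called in every alternative that was run.

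Fos was also higher relative to Jun in the same libraries. Per kilobase, the Fos to Jun ratio was 1.69, 2.44 and 1.96 in the CNO-control libraries and 0.222, 0.343 and 0.819 in the untreated ones. All 3 ratios were higher than all 3 untreated ratios, and the exact permutation test gave p = 0.1, the smallest value that 3 against 3 libraries allow.

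In the 6 olfactory bulb libraries from Slc22a3-FF mice, Fos, Fosb, Fosl2, Jun, Junb and Atf3 had their highest group medians of the series. Jund was highest in flox control (median 26.3 RPM), followed by olfactory bulb mCh Gq-Saline (17.1) and Slc22a3-cKO (15.5). No member passed the test between the 2 Slc22a3-FF groups. Of all 13465 genes tested, 2.53% were called. At an unadjusted p under 0.05 there were 2482 genes and 1 member, Fosl2, and edgeR called 277 genes and no member. Each of the 7 members tested reached the filter in all 6 libraries.

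Fosl2 came closest, with 77.6, 65.7 and 104 RPM in the libraries labelled Slc22a3-cKO and 36.4, 24.6 and 45.0 RPM in flox control. All 3 were above all 3 flox control libraries, with a log2 difference of 1.43 (SE 0.37, adjusted p = 0.0669). Fos had 1422, 834 and 1522 RPM against 896, 565 and 1210 RPM, which overlap (log2 difference 0.71, SE 0.34, adjusted p = 0.291). Jun had 657, 591 and 1124 RPM against 1388, 801 and 1667 RPM, also overlapping (log2 difference -0.50, SE 0.34, adjusted p = 0.476).

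Atf3, the stress-induced member, had 431, 382 and 407 RPM against 399, 269 and 645 RPM, a log2 difference of 0.18 (SE 0.33). Junb had 126, 139 and 118 RPM against 124, 55.3 and 176 RPM, a difference of 0.45 (SE 0.41). Fosb had 195, 186 and 252 RPM against 299, 246 and 224 RPM, a difference of -0.09 (SE 0.27). Jund had 22.8, 13.8 and 15.5 RPM against 27.1, 21.2 and 26.3 RPM, a difference of -0.35 (SE 0.47). For these 4 genes the ranges of the groups overlapped.

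The Fos to Jun ratio per kilobase, however, did not overlap between the groups. It was 2.93, 1.91 and 1.84 in the Slc22a3-cKO libraries and 0.875, 0.956 and 0.984 in flox control (exact permutation p = 0.1, the smallest possible with 3 against 3). Among other immediate early genes, 3 of 21 rose: Nr4a3, Egr3 and Egr2. Il1b and Cd44 rose among 20 textbook AP-1 targets, and Batf2 among 24 other leucine zipper genes. Beside these values, the astrocyte marker median was 401 to 606 RPM in flox control and 78.7 to 195 RPM in Slc22a3-cKO, and 3 of 12 astrocyte markers fell (median log2 difference -0.75). The neuron marker median was 38.8 to 100.8 RPM against 7.68 to 23.9 RPM, with 2 of 9 tested fallen (median -2.42). All 7 oligodendrocyte markers (median -1.47) and all 4 precursor markers (-3.30) had a negative difference, none of them called. Of 10 microglia markers 9 had a positive difference, none of them called, and Malat1 took 1.65 to 5.73% of reads over the 6 libraries. Their part in the result was not tested.

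**Figure D3:**
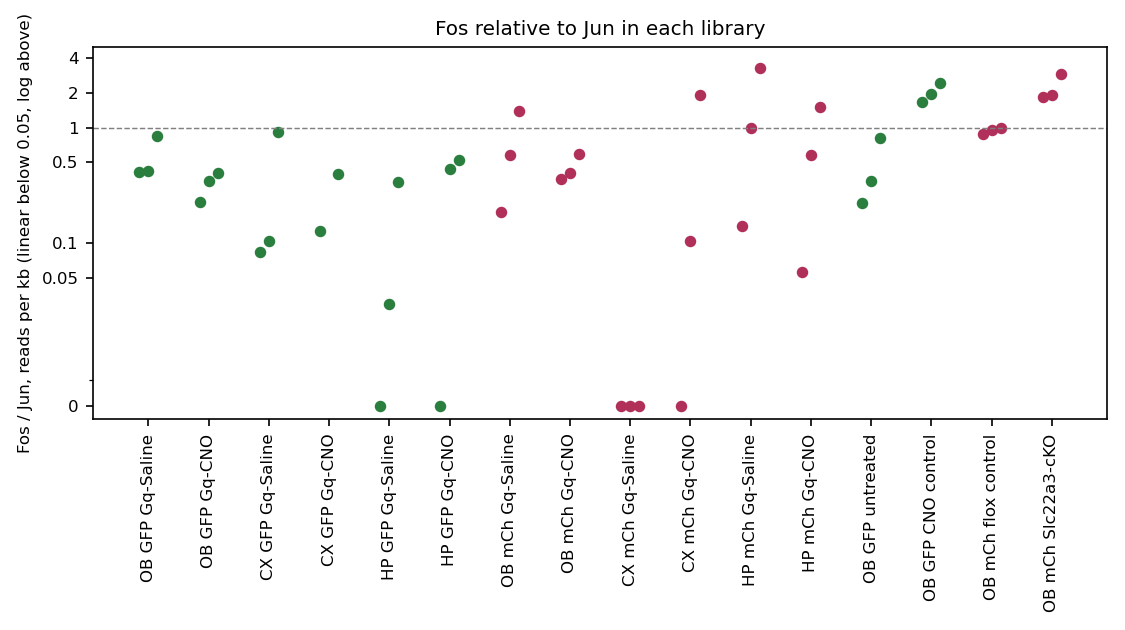
Ratio of Fos to Jun reads per kilobase of exon (y axis, linear below 0.05 and logarithmic above) in each library with reads of Jun, green for GFP and red for mCh sorts; the dashed line marks equal levels. The CNO-control libraries (1.69 to 2.44) and the Slc22a3-cKO libraries (1.84 to 2.93) lie above 1, and the flox control libraries (0.875 to 0.984) just below it. Single Gq mCh libraries also lie above 1. In hippocampus these are the first Gq-Saline (3.27) and the third Gq-CNO library (1.51). The others are the second cortical Gq-CNO (1.94, from 10 Fos and 7 Jun reads) and the third olfactory bulb Gq-Saline library (1.39).

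Gq-CNO against Gq-Saline asks what ligand activation of a Gq-coupled designer receptor does, and AP-1 genes are widely used readouts of such signalling. No member passed the test in any of the 6 comparisons, with 5, 3 and 5 members tested in the GFP sorts of olfactory bulb, cortex and hippocampus and 6, 3 and 4 in the mCh sorts. The background was just as low: 0.00847% of genes (1 of 11810) were called in the olfactory bulb GFP sort and 0% in each of the other 5. Of the members, Jun and Fosl2 in the olfactory bulb GFP sort had an unadjusted p under 0.05. Of all genes 564, 142 and 234 did so in the GFP sorts and 556, 428 and 445 in the mCh sorts. edgeR's quasi-likelihood test called no gene in any of the 6.

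In olfactory bulb astrocytes Jun was 45.1, 43.8 and 66.4 RPM after Gq-CNO and 37.0, 24.3 and 31.1 RPM after Gq-Saline. The groups did not overlap, and the log2 difference of 0.75 (SE 0.34) had an unadjusted p of 0.0342 and an adjusted p of 0.996. Fosl2 had 0.267, 1.33 and 1.18 RPM against 15.24, 5.98 and 1.30 RPM, an overlap in RPM but not in normalised values (log2 difference -2.49, SE 1.21, unadjusted p = 0.0492). Fos was level, with 7.49, 12.97 and 16.8 RPM against 23.1, 7.43 and 9.72 RPM and a log2 difference of -0.0033 (SE 0.59). Junb had 2.27, 7.03 and 5.43 RPM against 2.43, 2.54 and 0.972 RPM (log2 difference 1.23, SE 1.02).

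In hippocampal astrocytes Fos was 19.4, 8.46 and 0 RPM after Gq-CNO and 1.20, 8.72 and 0 RPM after Gq-Saline. The groups overlapped, with a log2 difference of 1.27 and an SE of 2.35. Both values of 0 come from the libraries numbered 4. In these, 9796 (Gq-CNO) and 11024 (Gq-Saline) genes had reads, against 13451 to 14093 in the other hippocampal GFP libraries. Jun stayed between 24.2 and 50.3 RPM in all 6 libraries (log2 difference -0.27, SE 0.50). In cortical astrocytes Jun was 32.5, 26.6 and 0 RPM against 30.1, 33.7 and 151 RPM, a log2 difference of -3.20 with an SE of 1.69. Both outer values come from the libraries whose column names carry the number 4. The Gq-CNO one is the shallowest GFP library, at 0.325 Mreads, and with both left out the log2 difference of Jun was -0.10. Jund, at 3.25, 5.19 and 0 RPM against 10.8, 5.96 and 49.6 RPM, had a log2 difference of -3.20 (SE 1.61, adjusted p = 0.910) and of -0.91 without the same 2 libraries. In the shallow Gq-CNO library 3 reads would be 9.23 RPM, so its 0 for Jund cannot be placed below the Gq-Saline value of 5.96 RPM.

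The cortical GFP Gq-Saline library numbered 4 stood apart for 5 members. It had 102 RPM of Fos, 151 of Jun, 103 of Atf3, 32.0 of Junb and 49.6 of Jund, whereas the other 5 cortical GFP libraries reached at most 15.4, 33.7, 3.08, 1.49 and 10.8 RPM. Its microglia marker median was 203 RPM, against 4.59 to 23.1 RPM in those 5, and Malat1 took 1.02% of its reads. Their part in its AP-1 levels was not tested.

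In the mCh sorts the libraries of a group varied as much as the groups. Fos after Gq-CNO and Gq-Saline was 10.1, 9.24 and 28.3 against 22.2, 5.95 and 72.0 RPM in olfactory bulb, and 2.28, 26.8 and 58.2 against 30.7, 55.1 and 2.25 RPM in hippocampus. Both differences were smaller than their SE (log2 differences -0.64, SE 0.81, and -0.06, SE 1.06). Jund in olfactory bulb was 5.82, 12.5 and 4.90 RPM against 17.1, 13.3 and 30.8 RPM without overlap (log2 difference -1.40, SE 0.83, adjusted p = 0.900). Fosl2 reached 212 RPM (1102 reads) in the second olfactory bulb Gq-CNO library, against 6.94 to 35.04 RPM in the other 5 of that sort and region. In cortex Fos had 0 reads in 4 of 6 mCh libraries and 4 and 10 reads in the other two, at 0.228 to 2.49 Mreads per library.

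**Figure D4:**
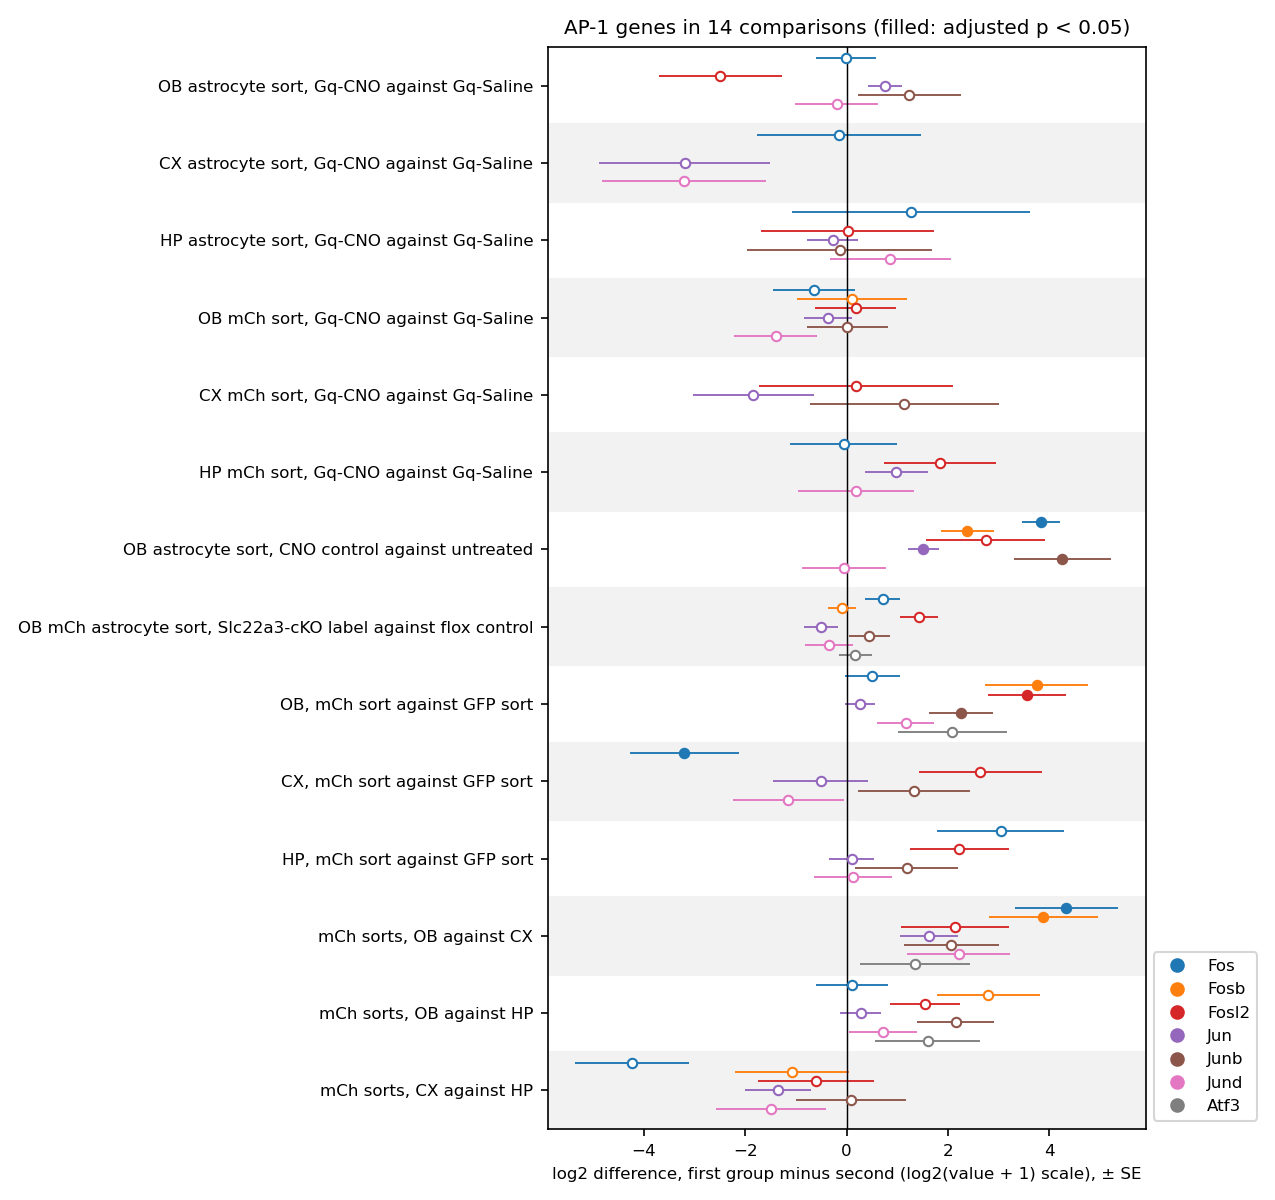
Log2 differences (x axis, on the log2(value + 1) scale, with the standard error) of the members tested in each of 14 comparisons (y axis, OB olfactory bulb, CX cortex, HP hippocampus), in 1 colour per gene; filled points have an adjusted p under 0.05. Filled points appear for Fos, Fosb, Jun and Junb in CNO-control, for Fosb, Fosl2 and Junb in the olfactory bulb mCh sort, for Fos in the cortical mCh sort and for Fos and Fosb in olfactory bulb against cortex.

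The mCh and GFP sorts of the same region and experiment were compared over 6 libraries each, with treatment in the model, and these comparisons share their mCh libraries with those between regions further on. In olfactory bulb 3 of 7 members tested were higher in the mCh sort and none lower, in a comparison where 30.0% of all genes were called and 16.5% were higher. That share is large, so the count is read against it. Fosl2 reached the filter value in 6 mCh and 2 GFP libraries, and Fosb in 5 and 2. Both therefore passed the filter mainly through the mCh sort, where they are high, and their calls carry that selection. Fosl2 ranged from 6.94 to 212 RPM (median 22.1) in the mCh sort and from 0.267 to 15.24 RPM (median 1.31) in the GFP sort (log2 difference 3.56, SE 0.78, adjusted p = 0.000897). Fosb ranged from 0.570 to 32.9 RPM (median 13.3) against 0 to 4.15 RPM (median 0.245), a log2 difference of 3.75 (SE 1.02, adjusted p = 0.00624). Junb ranged from 7.98 to 38.1 RPM against 0.972 to 7.03 RPM, the only 1 of the 3 without overlap (log2 difference 2.26, SE 0.63, adjusted p = 0.00759).

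Fos and Jun did not pass there. Jun had a median of 47.6 RPM in the mCh and 40.4 RPM in the GFP sort (log2 difference 0.26, SE 0.30), and Fos 16.2 and 11.3 RPM (0.51, SE 0.54). Beside these values, all 10 microglia markers were higher in the mCh sort (median log2 difference 6.67), as were all 7 oligodendrocyte markers tested (4.70) and 7 of 10 neuron markers. All 12 astrocyte markers were lower. Their part in the result was not tested.

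In cortex 1 of 5 members was called, Fos, as lower in the mCh sort, where 28.3% of all genes were called and 13% (1395 genes) were lower. It ranged from 0 to 7.30 RPM in the mCh sort and from 2.06 to 102 RPM in the GFP sort (log2 difference -3.20, SE 1.07, adjusted p = 0.0291). Fos reached the filter value in 1 mCh and 3 GFP libraries, so it passed mainly through the GFP sort, where it is high. The ranges overlap, and the shallow mCh libraries limit the low end: in the 4 without a Fos read, 3 reads would be 1.21 to 13.2 RPM. The call was lost without the 2 libraries numbered 4, with edgeR (adjusted p = 0.0756), without a filter and with same-numbered libraries as a block. It was also lost without any one of the 3 Gq-Saline mCh libraries or the third Gq-CNO mCh library (adjusted p between 0.0554 and 0.0641). Fosl2 ranged from 0 to 57.7 RPM in the cortical mCh and from 0 to 3.72 RPM in the GFP sort. It reached the filter in 4 mCh and 0 GFP libraries, so it passed only through the mCh sort, where it is high. With edgeR it was called higher in the mCh sort (log2 difference 4.503, adjusted p = 0.0443). Limma did not call it (2.64, SE 1.21, adjusted p = 0.113), except without the second Gq-Saline (adjusted p = 0.0269) or the third Gq-CNO mCh library (0.0447). All of these Fosl2 calls carry that selection. In hippocampus none of 5 members passed, where 30.1% of all genes were called, and edgeR called none of the 5 and 3248 genes in all. At an unadjusted p under 0.05 there were 2 members and 5060 genes. Fos there ranged from 2.25 to 58.2 RPM in the mCh and from 0 to 19.4 RPM in the GFP sort (log2 difference 3.04, SE 1.26, adjusted p = 0.0712), and Fosl2 from 0.980 to 24.0 against 0.475 to 7.22 RPM (2.23, SE 0.98, adjusted p = 0.0897).

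Among the mCh sorts, 2 of 7 members were higher in olfactory bulb than in cortex and none lower, with 7.76% of all genes called and 5% (586 genes) higher. The median of all genes was itself 0.38 higher on the log2 scale. Fos ranged from 5.95 to 72.0 RPM (median 16.2) in olfactory bulb and had 0 reads in 4 of 6 cortical libraries, a log2 difference of 4.34 (SE 1.02, adjusted p = 0.00676) that depends on the pseudocount. Fosb, at a median of 13.3 RPM in olfactory bulb, had reads in only 1 cortical library (8.03 RPM), a difference of 3.88 (SE 1.07, adjusted p = 0.0223). It was not called with edgeR (adjusted p = 0.0984). Both reached the filter in 1 cortical library only, so they passed it mainly through olfactory bulb. Depth was 0.228 to 2.49 Mreads in the cortical and 1.75 to 5.88 Mreads in the olfactory bulb mCh libraries, and 9 of 12 astrocyte markers were higher in olfactory bulb and 6 of 10 microglia markers lower. Their part in the result was not tested.

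Against hippocampus no member passed in olfactory bulb (0 of 7, with 6.56% of all genes called) or in cortex (0 of 6, with 0.319% called). Junb in olfactory bulb (7.98 to 38.1 RPM) lay above hippocampus (0.449 to 6.91 RPM) in every library, with a log2 difference of 2.15 (SE 0.76, adjusted p = 0.0874). Fos in cortex against hippocampus had a log2 difference of -4.23 (SE 1.13, adjusted p = 0.1096), with 4 of the 6 cortical libraries at 0 reads. At an unadjusted p under 0.05 there were 3 members (Fosb, Fosl2 and Junb) against 2182 genes in the first comparison and 2 members (Fos and Jun) against 951 genes in the second, and edgeR called no member in either.

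The genes whose level was most like the mean log2 level of the 8 members over all 48 libraries, among 7316 genes with a median of at least 10 RPM, were Egr1 (Spearman correlation 0.85), Pnisr (0.84), Kcnq1ot1 (0.84), Malat1 (0.80), Nvl (0.79) and Lppr4 (0.78). Egr1 is an immediate early gene, and Malat1 and Kcnq1ot1 are nuclear noncoding RNAs. Over the 39 libraries whose column names lack the DS prefix, the values were 0.74, 0.74, 0.72, 0.65, 0.61 and 0.65. All points share library depth and sort, and the coefficients are descriptions. Among the members themselves, Fos was nearest to Fosb (0.75 over 48 libraries, 0.54 over 39), Jun (0.73 and 0.49) and Atf3 (0.71 and 0.56), and farther from Fosl2 (0.44 and 0.19).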

How the data were processed

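RNA was extracted from sorted cells with an RNeasy Micro kit, and libraries were made from 10 ng of total RNA with a NuGEN Trio RNA-Seq kit and sequenced as paired ends, per the labels' protocols. FastQC 0.11.7, MultiQC 1.11, STAR 2.5.0a, DESeq2 1.30.1 and the build mm10 are named in the submitters' processing notes. The deposited values are a signal: read counts that the authors divided by 1 size factor per library. Dividing each column by its smallest positive value gave back whole reads for 100% of values (within 0.05), and these gave RPM and depth. No column had to be left out for want of a sample.

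The main test was limma 3.58.1 (R 4.3.3, trended variance, two-sided) on log2(value + 1) over all genes for which 3 or more of the compared libraries reached a value of 10, with Benjamini-Hochberg adjustment and a threshold of 0.05. Differences of low genes on that scale depend on the pseudocount and can come out smaller or larger than with edgeR. Fosl2 in the cortical sort comparison was 2.64 against 4.50 with edgeR. Jun in the cortical GFP treatment comparison was -3.20 against -1.69. Sort comparisons used recovered reads divided by joint median-of-ratios size factors, and sort and region comparisons had treatment as a covariate. The test that fits such values was used in place of a count test. edgeR 4.0.16 (quasi-likelihood) on recovered reads was an alternative, as were a pseudocount of 5, no filter, TMM scaling, a replicate block, leaving out each library and, chosen after seeing the data, leaving out the libraries numbered 4. The fits were tested on simulated data.

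The 8 members and all gene lists were chosen with earlier results of these data known. Named genes outside the members are, per list, up to 3 with the smallest adjusted p among those called, and the 6 most like the members. The smallest depth, 0.228 Mreads, puts a count of 3 reads at 13.2 RPM, and such floors cover counting error only. A number shared by libraries of different groups was not taken as a pairing. Of the gene names 27 had been turned into dates and were kept as they are.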

Additional observations from a re-analysis of the deposited data

Results flagged for a closer look

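Each member's 6 libraries of a region and sort, both treatments together (groups of 3 were not examined), were checked for a highest or lowest library that stands far from the rest by Dixon's criterion. Chance flags about 1 in 20 sets, and 16 of 42 were flagged; many of the sets are low counts with zeros, and members share libraries, so the flags are not independent.

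The cortical GFP Gq-Saline library numbered 4 was the highest for 5 members, with Fos at 101.6 RPM (next 15.4), Jun at 151.3 (next 33.7), Atf3 at 103.3 (next 3.08), Junb at 32.0 (next 1.49) and Jund at 49.6 (next 10.8). The second olfactory bulb mCh Gq-CNO library had 212.2 RPM of Fosl2 (next 35.04), and the third Gq-Saline library of that sort 72.0 RPM of Fos (next 28.3). The third olfactory bulb GFP Gq-CNO library had 3.78 RPM of Atf3 (next 1.26), and the first hippocampal GFP Gq-CNO library 7.22 RPM of Fosl2 (next 2.24).

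In the cortical mCh sort, the second Gq-CNO library had 7.30 RPM of Fos (next 1.63) and 8.03 RPM of Fosb (next 0). The Gq-Saline libraries of that sort had 83.8 RPM of Jun in the second (next 21.2), 22.1 RPM of Jund in the third (next 7.12) and 18.7 RPM of Atf3 in the first (next 0.815). The second hippocampal mCh Gq-Saline library had 18.4 RPM of Fosb (next 5.34) and 5.59 RPM of Atf3 (next 1.07).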

How the results depend on the processing

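Of 1042 alternative values for single members, 951 kept their direction and their side of the threshold, 65 changed sign, 14 lost a call and 12 gained one. The counts of members called stayed within 1.5 times the main count in 175 of 194 alternatives. Most member results and most comparisons had no call in the main fit, so both shares mainly count results that stayed uncalled. The cortical sort count went from 1 to 0 with no filter, with the replicate block and without the 2 cortical libraries numbered 4. The olfactory bulb against cortex count went from 2 to 1 with no filter and with edgeR. Leaving out 1 library at a time gave 2 to 5 members for CNO-control (5 when the second untreated library was left out, Fosl2 then passing), 0 to 1 for the cortical and for the hippocampal sort, 1 to 3 for olfactory bulb against cortex, 0 to 1 for olfactory bulb against hippocampus, 3 throughout for the olfactory bulb sort and 0 throughout for the others.

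Libraries with the same number deviated together little (correlations from -0.09 to 0.12). Such values cannot show whether they share an animal, which the labels do not give, and the main tests took them as separate. With the replicate block 4 members were called in CNO-control, 3 in the olfactory bulb sort, 2 in olfactory bulb against cortex and 0 in the cortical sort, where Fos had a log2 difference of -1.88, and Jund turned to -0.25 in the hippocampal sort.

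None of the sign changes touched a call. In the hippocampal sort Jund was also -0.043 with edgeR, -0.0011 with TMM and -0.40 without the 2 hippocampal libraries numbered 4, and Jun -0.028 with TMM. With TMM Fosl2 was -0.0036 in the hippocampal GFP treatment comparison. In the olfactory bulb mCh treatment comparison Fosb was -0.19 and Junb -0.0018 with a pseudocount of 5, and -0.92 and -0.16 with edgeR. With edgeR Fos was 0.029 and Jund -0.0019 in the hippocampal mCh treatment comparison, Fos -0.41 in olfactory bulb against hippocampus and Fosl2 0.68 in cortex against hippocampus. The cause was not tested.

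Leaving out 1 library changed a sign as follows. For Slc22a3-cKO, Atf3 ranged from -0.13 to 0.51, Fosb from -0.18 to 0.0092 and Junb from -0.022 to 0.82. For CNO-control Jund ranged from -0.14 to 0.18. For Gq-CNO in GFP sorts, Fos ranged from -1.09 to 1.70 in cortex, -0.41 to 3.59 in hippocampus and -0.35 to 0.44 in olfactory bulb; Fosl2 from -0.94 to 0.75 and Junb from -0.998 to 0.31 in hippocampus; Jund from -0.55 to 0.14 in olfactory bulb. In mCh sorts, olfactory bulb Fos ranged from -1.53 to 0.23, Fosb from -1.54 to 1.02, Fosl2 from -1.22 to 1.19 and Junb from -0.49 to 0.70; cortical Fosl2 from -1.73 to 2.19 and Junb from -0.15 to 1.70; hippocampal Fos from -1.33 to 1.24 and Jund from -0.17 to 0.74. Olfactory bulb against hippocampus gave -0.49 to 0.56 for Fos and -0.060 to 0.51 for Jun, cortex against hippocampus -1.35 to 0.38 for Fosl2 and -0.29 to 0.73 for Junb, and the hippocampal sort -0.14 to 0.44 for Jun and -0.16 to 0.31 for Jund.

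Depth limits the low members: Fosl1 had no read in 45 of 48 libraries, and Fosb had no read in 16 and Atf3 in 17 of the 36 Gq libraries. The cortical mCh libraries, with 0.228 to 2.49 Mreads, limit Fos in the same way.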
